A study of Mus musculus with 24 samples.

Results

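The first 6 hours after C2C12 cells were moved to reduced serum were examined by comparing 6 of the 24 arrays of a differentiation time course. These were the 3 arrays of Day 0 and the 3 arrays of 6 hours, chosen by their labels, and the comparison covered every probe set with a mean intensity of at least 100 in either group. C2C12 is a line of mouse skeletal myoblasts, and the labels name no genetic change or added agent in either group. By the labels, cells of both groups were grown in high-glucose DMEM with 10% FBS, the Day 0 cultures were at 90% confluency, and differentiation was started in medium whose serum was lowered to 2% (the study's methods give a slightly higher share). None of the 24 arrays came from cells that were given fresh medium with full serum, or that were left in growth medium, for the same 6 hours. Loss of serum, fresh medium and time in culture therefore cannot be told apart in this comparison, nor can a change in each cell from a change in the mixture of cells. Levels are given as the deposited intensity on a linear scale, changes are log2 of 6 hours over Day 0, and a gene passed at an adjusted p under 0.05 in limma (Benjamini-Hochberg).

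Myoblasts in serum divide and hold the determination factors MyoD and Myf5. When growth factors are withdrawn they express myogenin, stop dividing, fuse and build sarcomeres. Several general circuits also read the medium. ATF4 is a transcription factor whose protein is made when amino acids run short or the endoplasmic reticulum is stressed, and it raises genes of amino acid uptake, amino acid synthesis and tRNA charging. SREBP factors raise the genes of cholesterol and fatty acid synthesis when sterols in the membrane are low, and serum lipoproteins are a source of sterol. SRF with its actin-sensing partners, and Smad factors downstream of TGF-beta and BMP, raise cytoskeletal, matrix and Id genes.

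Of 7344 genes tested, 2000 were higher and 1977 lower at 6 hours, so 54.2% changed, 27.2% upward and 26.9% downward (46.1% of the 12565 probe sets). This share is the background for every count below. The median change over all genes was -0.01. Most changes were small, since 274 genes rose and 362 fell by at least 2-fold, and 4 rose and 21 fell by at least 8-fold. The values of the 3 arrays of each group did not overlap in 4750 genes (64.7%). The 6-hour arrays were less alike than those of Day 0, with a lowest r between replicates of 0.968 against 0.993 in log2 values. Replicate 2 of 6 hours stood apart, at 20.3 on the component that separated the groups, against 38.1 and 42.3 for the other 6-hour arrays and -30.1 to -35.4 for Day 0. Without it, 2741 of 7379 genes were higher and 2740 lower (74.3% in all and 37.1% in each direction), and of 3960 genes called both with and without it, 3931 had the same sign. The probe set kept for a gene could differ between these fits. Without Day 0 replicate 3 the number higher was 1323, and the number lower was 1225 without Day 0 replicate 2 and 1253 without 6 hours replicate 1. The labels do not say whether replicates were separate cultures. All p-values therefore reflect only how far these 6 arrays spread, and that spread may be technical.

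The arrays carried the markers of the labelled cells. All 9 myoblast markers were measured, namely Myod1, Myf5, Des, Cdh15, Itga7, Vcam1, Vim, Cd34 and Met. Summed over all their probe sets, the intensity was 41830 to 44192 on Day 0 and 44683 to 49154 at 6 hours. Myod1, Myf5 and Cdh15 had Day 0 means of 863, 897 and 2756, so most of the sum came from other members. None of the 9 macrophage and blood markers on the array reached the level filter, with a summed intensity of at most 102, and for smooth and cardiac muscle and for osteoblasts and chondrocytes 1 marker each did. The filter was also reached by 2 adipocyte markers, Lpl and Pparg (Day 0 means of 766 and 287). For endothelium, nerve and epithelium 1 marker reached it, Tubb3. Markers of differentiated muscle were already present on Day 0, with all 9 measured and a summed intensity of 15627 to 17508, against 10891 to 12951 at 6 hours. Myog, the gene of myogenin, read 404 ± 82.9 (SD, n = 3) on Day -1 and 2621 ± 67.0 on Day 0.

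**Figure D1:**
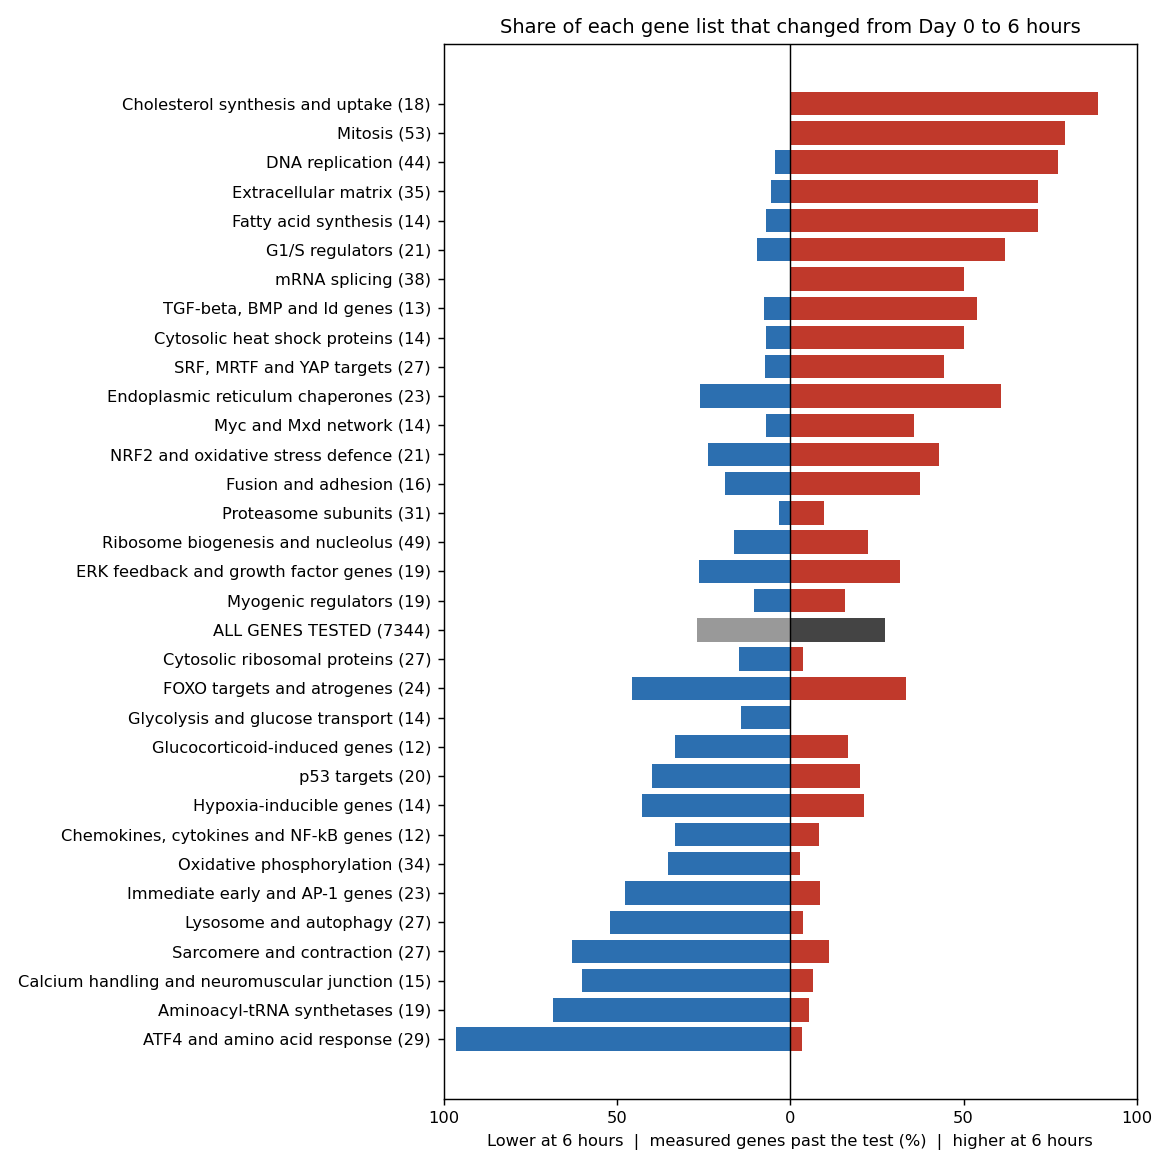
Share of the measured genes of each list that passed as higher (red, right) or lower (blue, left) at 6 hours than on Day 0, in percent, for lists with at least 12 measured genes (number in brackets), with all genes tested in grey. Genes of the ATF4 and amino acid response lie at the lower end with 96.6% lower, and genes of cholesterol synthesis and uptake at the upper end with 88.9% higher, against 26.9% and 27.2% of all genes.

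Nearly all measured genes of the ATF4 and amino acid response were lower at 6 hours. Of 33 listed genes 29 were measured, and 28 of them fell while 1 rose, with a median change of -2.02 against -0.01 for all genes. The counts were the same without 6 hours replicate 2, where the median was -2.13. Trib3 (Entrez ID 228775), a pseudokinase that is a standard readout of this pathway, had intensities of 1669, 1902 and 1845 on the Day 0 arrays and of 12.3, 15.2 and 12.8 at 6 hours. The groups lay far apart, and the level was 135-fold lower at 6 hours (log2 change -7.07, SE 0.11, adjusted p = 2.22e-08 in limma). Cth, the enzyme that makes cysteine from cystathionine, went from 1466, 1411 and 1415 to 28.4, 18.3 and 43.5 (log2 change -5.66, SE 0.26, adjusted p = 4.86e-06). Chac1, which degrades glutathione, went from 1034, 1025 and 1072 to 31.5, 75.7 and 30.3 (log2 change -4.65, SE 0.31, adjusted p = 3.10e-05), and here replicate 2 kept more of the Day 0 level than the others. Vldlr, a lipoprotein receptor, read 191, 216 and 187 and then 5.62, 4.34 and 3.92, which is close to the median intensity of an array (3.63 to 3.82). For levels this low the size of a fold depends on how the background of the array was modelled. With values below 50 raised to 50 the log2 change of Trib3 was -5.17.

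The regulators of the response fell with their targets. Atf4 itself had 3780, 4455 and 4414 on Day 0 and 1376, 1721 and 1304 at 6 hours (log2 change -1.53, SE 0.13, adjusted p = 8.94e-05). Ddit3, which encodes the stress factor CHOP, had 1170, 1595 and 1528 and then 145, 198 and 122 (log2 change -3.22, SE 0.19, adjusted p = 1.56e-05). Atf3, another stress factor that was counted among the immediate early genes, fell by 2.22 on the log2 scale with no overlap between its Day 0 arrays (752 to 803) and its 6-hour arrays (157 to 189). Members with a metabolic role fell as well. Asns, the asparagine synthetase, fell 3.38-fold, and Pck2, the mitochondrial phosphoenolpyruvate carboxykinase, fell 12.7-fold from 272 ± 16.4 to 21.6 ± 3.22. On the brighter probe set of Pck2 the fall was smaller, from a mean of 1969 to 355 (log2 change -2.48). Sesn2, an inhibitor of mTORC1 signalling when leucine is low, fell 9.26-fold. The smallest fall on the list was that of Ddit4, with a log2 change of -0.51. The exception was Slc38a2, an amino acid transporter, at 3232, 3014 and 3340 on Day 0 and 4262, 3557 and 4741 at 6 hours (log2 change 0.38, adjusted p = 0.0345). That call was lost when any 1 of 5 arrays was left out, with an adjusted p of up to 0.123, and held only without 6 hours replicate 2.

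Trib3, Cth and Ddit3 were higher on Day 0 than on Day -1, at 6 hours or on Day 1. Trib3 read 244 ± 65.8 on Day -1, 1805 ± 121 on Day 0, 13.4 ± 1.55 at 6 hours and 523 ± 131 on Day 1 (SD, n = 3 each). Cth read 123 ± 4.55, 1431 ± 30.6, 30.1 ± 12.7 and 301 ± 13.4 at the same time points, and Ddit3 read 208 ± 56.6, 1431 ± 229, 155 ± 38.8 and 416 ± 51.8. These genes were lowest at 6 hours among the time points given. Slc38a2 differed, at 3651 ± 519, 3196 ± 166, 4187 ± 596 and 3815 ± 294. The median of the list stood 1.10 below Day 0 on Day -1, 2.02 below it at 6 hours and 0.87 below it on Day 1 (values -1.10, -2.02 and -0.87 on the log2 scale). Fgf21, a hormone made by muscle under mitochondrial or amino acid stress, was higher on Day 1 than on Day 0, at 3.42 ± 1.21 on Day -1, 129 ± 3.17 on Day 0, 5.16 ± 2.32 at 6 hours and 293 ± 67.8 on Day 1. Its fall within 6 hours was 26.8-fold (log2 change -4.74, SE 0.27, adjusted p = 1.33e-05). These comparisons across days are levels set side by side and were not tested, since the intervals share arrays.

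Aminoacyl-tRNA synthetases, which charge tRNAs with their amino acids and are in part ATF4 targets, moved the same way by less. Of 19 measured, 13 fell, 1 rose and 5 did not pass, with a median change of -0.83. Without 6 hours replicate 2, 15 fell and 2 rose. Wars, the tryptophan enzyme, had 1361, 1560 and 1526 on Day 0 and 442, 434 and 488 at 6 hours (log2 change -1.70, SE 0.10, adjusted p = 1.66e-05), and all 3 of its probe sets fell. The cysteine enzyme Cars fell by 1.57 and the serine enzyme Sars by 1.46 on the log2 scale. Farsa, the alpha subunit of the phenylalanine enzyme, was the gene that rose, from 456, 538 and 466 to 665, 707 and 728 (log2 change 0.53, adjusted p = 0.00451), while its partner Farsb, named here as the other subunit, fell by 0.50. In these lists replicate 2 of 6 hours moved as far as the other 6-hour arrays. Over the genes that passed without it, its changes were set against the mean change of the other 6-hour arrays. The slope through the origin, in which large changes weigh most, was 0.97 in the ATF4 list and 1.07 in the synthetases. Over all 5481 genes it was 0.68. The median ratios were 1.02, 1.11 and 0.52. These genes were chosen on arrays other than replicate 2, which by itself can lower its ratio where changes are small.

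Sequence near the start of these genes was searched for the core of the site that ATF4 binds with C/EBP partners. The letters searched were TGATGNAA on both strands, in windows of 250 bases before to 50 bases after each start from RefSeq (GRCm38.p6). A match was found in 3.97% of all 32851 promoters of the table, and in 2.65% of the 6038 genes tested here that had a promoter. Of the measured genes of the ATF4 list 24 had a promoter in the table, and 7 of these held a match. Of the synthetase genes 12 had one, and 5 held a match. The promoter of Trib3, the gene with the lowest adjusted p in the list that held a match (chr2:152344011-152344310, minus strand), is shown whole, with the match in capitals.
Trib3: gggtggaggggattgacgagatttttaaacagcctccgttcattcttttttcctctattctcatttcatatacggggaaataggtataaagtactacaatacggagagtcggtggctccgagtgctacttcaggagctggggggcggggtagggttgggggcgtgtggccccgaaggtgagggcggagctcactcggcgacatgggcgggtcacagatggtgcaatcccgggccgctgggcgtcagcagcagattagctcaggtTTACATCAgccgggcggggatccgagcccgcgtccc
The match of Trib3 lies after the annotated start. Matches in other genes of both lists are shown with 10 bases on each side, to allow their flanks to be compared. The match is again in capitals and each sequence is read along the strand of its gene.
Vldlr, chr19:27216810-27216837, plus strand: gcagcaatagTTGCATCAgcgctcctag
Pck2, chr14:55540153-55540180, plus strand: gccttcaaagTTACATCAgtatcttaca
Chac1, chr2:119351039-119351066, plus strand: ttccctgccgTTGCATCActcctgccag
Asns, chr6:7693215-7693242, minus strand: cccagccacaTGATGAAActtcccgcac
Slc1a4, chr11:20332700-20332727, minus strand: gcctcctgcgTTGCATCAtctccagcct
Nupr1, chr7:126625563-126625590, minus strand: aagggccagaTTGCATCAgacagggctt
Yars, chr4:129189896-129189923, plus strand: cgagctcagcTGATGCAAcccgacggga
Iars, chr13:49682127-49682154, plus strand: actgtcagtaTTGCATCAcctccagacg
Tars, chr15:11399656-11399683, minus strand: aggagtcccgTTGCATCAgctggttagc
Gars, chr6:55037961-55037988, plus strand: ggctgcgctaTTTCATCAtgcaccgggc
Most of these matches read TTGCATCA or TTACATCA, that is, the site on the opposite strand. Nupr1, a stress-induced chromatin protein, fell by 2.83, and Slc1a4, a transporter of neutral amino acids, fell by 1.72 on the log2 scale. Yars, Iars, Tars and Gars, the enzymes for tyrosine, isoleucine, threonine and glycine, fell by 1.27, 1.06, 0.83 and 0.67. A match is a description of the letters and says nothing about binding in these cells, and a gene without one may hold the site outside this window.

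**Figure D2:**
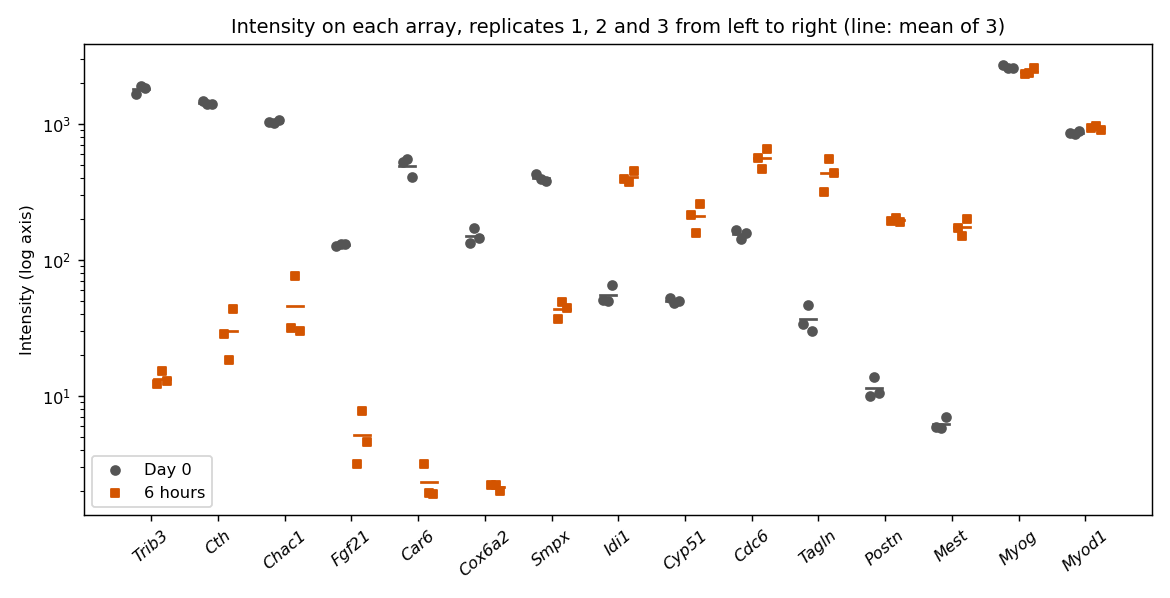
Intensity of 15 genes on each of the 6 arrays on a log axis, with Day 0 as circles, 6 hours as squares, replicates 1, 2 and 3 from left to right and lines at the group means. The groups lie apart for all genes but Myog, whose arrays overlap, and the falls of Trib3, Car6 and Cox6a2 and the rises of Postn and Mest span more than 1 decade of the axis.

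Genes of sterol synthesis rose together. Of 18 measured genes of cholesterol synthesis and uptake 16 rose and none fell, with a median change of 0.99, and without 6 hours replicate 2 it was 15 of 17. The genes that did not pass were Pmvk and Ebp, at 0.18 and 0.33. Idi1, the isomerase that makes the activated isoprene unit, had 50.9, 49.9 and 65.2 on Day 0 and 394, 377 and 449 at 6 hours. All 6-hour arrays lay above all Day 0 arrays, and the rise was 7.38-fold (log2 change 2.88, SE 0.13, adjusted p = 4.39e-06). Cyp51, the lanosterol demethylase, went from 52.9, 48.3 and 50.0 to 216, 159 and 259 (log2 change 2.04, SE 0.17, adjusted p = 7.32e-05). Hmgcs1, the synthase at the head of the pathway, went from 1021, 978 and 1028 to 2937, 2266 and 3059 (log2 change 1.44, SE 0.13, adjusted p = 0.000105), with all 4 of its probe sets higher. Stard4, a carrier of cholesterol in the cytosol, rose 2.94-fold. Insig1, the sterol sensor that holds SREBP back, rose 1.96-fold, from 153, 196 and 188 to 338, 409 and 306. The promoter of Hmgcs1 holds a match to the SREBP site TCACNCCA (chr13:119690101-119690400, plus strand, GRCm38.p6), shown because it has the lowest adjusted p of the 3 genes that hold it, of 14 measured genes with a promoter in the table.
Hmgcs1: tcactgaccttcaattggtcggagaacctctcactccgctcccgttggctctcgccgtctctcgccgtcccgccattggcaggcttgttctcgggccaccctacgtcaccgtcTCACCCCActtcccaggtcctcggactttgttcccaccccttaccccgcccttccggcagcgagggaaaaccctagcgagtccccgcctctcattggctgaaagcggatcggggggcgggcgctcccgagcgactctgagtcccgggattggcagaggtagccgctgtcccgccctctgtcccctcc
The match stands in capitals. These letters were found on either strand in 4.36% of all promoters and in 4.32% of the genes tested. The other matches were in Msmo1, a sterol oxidase, and in Srebf2, the factor itself.
Msmo1, chr8:64733738-64733765, minus strand: ctcactattcTCACTCCAtccgcgcagc
Srebf2, chr15:82147097-82147124, plus strand: tgacgcaccaTCACCCCAtgagccgctt
The CCAAT box, read in either direction, was found in 13 of the same 14 genes and in 37.4% of all promoters, or 43.1% of the genes tested.

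Fatty acid synthesis rose beside it. Of 14 measured genes 10 rose, 1 fell and 3 did not pass, with a median change of 0.74, and without 6 hours replicate 2 the counts were the same. Without a level filter the median was 0.38. Fasn, the fatty acid synthase, had 324, 324 and 303 on Day 0 and 911, 641 and 1051 at 6 hours (log2 change 1.42, SE 0.17, adjusted p = 0.000414). Elovl6, which lengthens saturated chains, rose 3.28-fold from 44.2 ± 4.12 to 145 ± 8.31, and the desaturases Fads2 and Scd2 rose 2.41-fold and 2.21-fold. The gene that fell was Mid1ip1, an activator of acetyl-CoA carboxylase, at -0.65. Among the 12 largest rises of all genes, Lrp8, a lipoprotein receptor, went from 25.4, 24.2 and 12.5 to 122, 96.3 and 141. Mfsd2a, a transporter of lysophospholipids, went from 24.3, 24.6 and 26.4 to 200, 156 and 184 (log2 change 2.83, SE 0.12, adjusted p = 2.33e-06). For both genes the 6-hour arrays were above all Day 0 arrays, which was a condition for entering this ranking. Cholesterol genes too had been higher before confluence, with a list median of 1.10 on Day -1, 0.99 at 6 hours and 0.47 on Day 1 relative to Day 0. Idi1 was 306 ± 30.6 on Day -1 and 283 ± 50.1 on Day 1, and Lrp8 was 263 ± 32.4 and 31.0 ± 15.4.

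Cell cycle genes were higher at 6 hours. Of 44 measured genes of DNA replication 34 rose and 2 fell (median change 0.57), of 53 genes of mitosis 42 rose and none fell (0.74), and of 21 G1/S regulators 13 rose and 2 fell (0.67). Without 6 hours replicate 2 the counts were 34 and 5, 43 and 0, and 14 and 6. Cdc6, which loads the replicative helicase, had 167, 142 and 159 on Day 0 and 560, 471 and 660 at 6 hours (log2 change 1.84, SE 0.14, adjusted p = 5.17e-05). Rrm2, a subunit of ribonucleotide reductase, had 894, 945 and 970 and then 2776, 2336 and 2524 (log2 change 1.44, SE 0.10, adjusted p = 3.92e-05). Uhrf1, which brings DNA methylation to new strands, rose 3.21-fold, and Mcm5, a helicase subunit, rose 2.36-fold. In each of these genes the 6-hour arrays lay above all Day 0 arrays, and 64.7% of all genes had no overlap in either direction. The genes that fell were Dut, the dUTPase, and Rfc4, a clamp loader subunit, at -0.55 and -0.42. Their calls were lost without any of 3 arrays for Dut (Day 0 replicates 1 and 2 and 6 hours replicate 1) and without any array but 6 hours replicate 2 for Rfc4, with an adjusted p of up to 0.0660 and 0.101. Dna2, a nuclease of lagging strand synthesis, was among the 12 largest rises, from 22.0, 21.0 and 17.5 to 118, 96.0 and 158.

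Among the genes of mitosis, Kif20b, Kif23 and Kif2c, motor proteins of the spindle and the midbody, had the lowest adjusted p. Kif23 read 269, 270 and 271 on Day 0 and 602, 598 and 576 at 6 hours (log2 change 1.13, SE 0.09, adjusted p = 5.67e-05), and the spread within each group was small. Top2a, the topoisomerase of dividing cells, rose 1.67-fold. Cdk1, the mitotic kinase, did not pass, with 2072, 2486 and 2638 against 2761, 3321 and 2510 (log2 change 0.25, adjusted p = 0.162). The regulators of G1 split. Cyclins E1 and E2 rose, Ccne1 by 1.06 and Ccne2 by 1.43, and so did Skp2, which targets p27 for destruction (1.37), and the repressor E2f7 (1.68). The other probe set of Ccne1 (group means 149 to 194) did not pass (log2 change 0.38, adjusted p = 0.139 in limma). Ccnd2, cyclin D2, fell on all 5 of its probe sets, from 821, 894 and 927 to 190, 193 and 188 (log2 change -2.21, SE 0.09, adjusted p = 2.85e-06). Ccnd1, cyclin D1, read 927, 1107 and 1046 and then 576, 1058 and 501, so that replicate 2 alone stayed within the Day 0 range, and it did not pass (adjusted p = 0.0766, and 7.57e-05 without that array). The inhibitors Cdkn1a (p21) and Cdkn1b (p27) were lower, at -0.83 and -0.57, and Cdkn1c was not measured, with an intensity of at most 2.58. The call of Cdkn1b rests on a dim probe set (group means 108 to 72.6). Its brighter one (646 to 519) did not pass (log2 change -0.34, adjusted p = 0.128 in limma). Ccna2, cyclin A2, went from 783, 802 and 874 to 1429, 1297 and 1302.

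On Day -1, when cultures were at 50% confluency, Cdc6 and Rrm2 had levels near those of 6 hours. Mcm5 was lower on Day -1, at 2387 ± 376 against 3268 ± 518 at 6 hours. Cdc6 was at 626 ± 48.1 on Day -1, 156 ± 12.8 on Day 0, 564 ± 94.9 at 6 hours and 216 ± 39.8 on Day 1. Rrm2 was at 2379 ± 248, 936 ± 38.8, 2545 ± 221 and 1213 ± 118. Relative to Day 0, the median of the mitosis list was 1.07 on Day -1, 0.74 at 6 hours and 0.31 on Day 1, and that of the DNA replication list 0.78, 0.57 and 0.04. E2F sites (TTTCCCGC, TTTGGCGC, TTTCGCGC or TTTGCCGC on either strand) were found in 13 of the 36 measured DNA replication genes with a promoter in the table, against 2.26% of all promoters and 5.18% of the genes tested. The promoter of Cdc6 (chr11:98907901-98908200, plus strand, GRCm38.p6), whose gene had the lowest adjusted p of these, is shown with the match in capitals.
Cdc6: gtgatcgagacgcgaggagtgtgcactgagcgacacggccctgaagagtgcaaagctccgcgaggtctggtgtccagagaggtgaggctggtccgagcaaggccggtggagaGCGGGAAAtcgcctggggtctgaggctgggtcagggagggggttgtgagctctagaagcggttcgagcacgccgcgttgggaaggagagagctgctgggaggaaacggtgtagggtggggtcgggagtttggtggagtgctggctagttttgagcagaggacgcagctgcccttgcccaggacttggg
The sites of Uhrf1 and Mcm6, a further helicase subunit that rose by 0.85, are set beside it.
Uhrf1, chr17:56304118-56304145, plus strand: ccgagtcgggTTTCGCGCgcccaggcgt
Mcm6, chr1:128359798-128359825, minus strand: ggcgtatgctTTTGGCGCgaaaagtgcg
In the mitosis list the E2F letters were found in 3 of 45 genes, and the CCAAT box in 34 of 45.

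**Figure D3:**
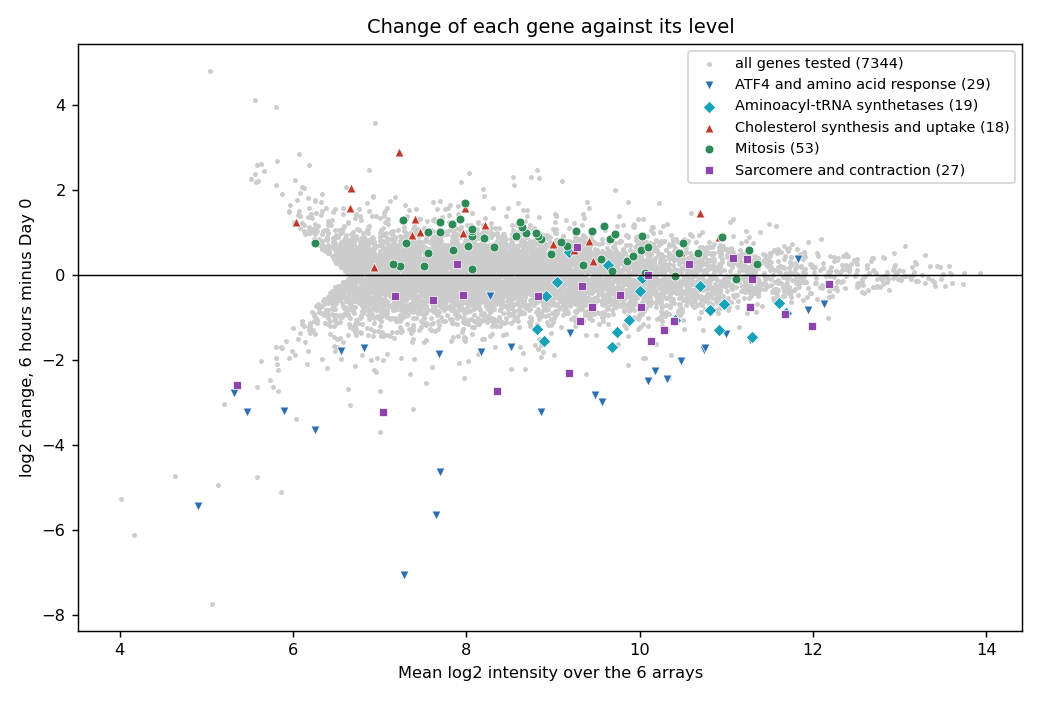
Change of each of the 7344 genes tested (6 hours minus Day 0, log2) against its mean log2 intensity over the 6 arrays, with 5 gene lists in colour. The ATF4 list lies below 0 but for 1 gene, the mitosis and cholesterol lists lie mostly above 0, and the empty wedge at the left comes from the level filter, which keeps genes of low mean level where they changed.

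Muscle structural genes, which differentiation raises later, were lower at 6 hours. Of 27 genes measured in the sarcomere list 17 fell and 3 rose, with a median change of -0.60, and without 6 hours replicate 2 it was 17 and 4. Smpx, a small protein of the sarcomere and costamere, had 429, 397 and 380 on Day 0 and 36.7, 48.8 and 44.6 at 6 hours (log2 change -3.22, SE 0.13, adjusted p = 2.14e-06). Myl4, the embryonic light chain of myosin, had 1309, 1406 and 1210 and then 259, 270 and 255 (log2 change -2.32, SE 0.10, adjusted p = 2.85e-06). Mybph, a myosin binding protein, fell 2.95-fold and the fast troponin T gene Tnnt3 2.12-fold. None of these genes overlapped between groups, which was also so for 64.7% of all genes. The genes that rose were Ttn, Actn3 and Tnnt2, by 0.65, 0.39 and 0.36, and each lost its call when 1 of 5 arrays (4 for Tnnt2) was left out, with an adjusted p of up to 0.152, 0.0806 and 0.0790. Cox6a2, the subunit of cytochrome oxidase used by striated muscle, went from 133, 172 and 146 to 2.23, 2.21 and 2.02, the third largest fall of all genes. In the list for calcium handling and neuromuscular synapses 9 of 15 genes fell and 1, Dok7, rose, and without 6 hours replicate 2 it was 9 and 4. The calcium channel subunit Cacnb1 fell by 1.36 and the calcium pump Atp2a1 by 1.14.

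The muscle-specific fusion proteins Mymk and Mymx fell in the same interval, while in the whole list for fusion and adhesion 6 of 16 measured genes rose and 3 fell (median change 0.11). Mymk, myomaker, had 881, 933 and 889 on Day 0 and 455, 515 and 532 at 6 hours (log2 change -0.85, SE 0.10, adjusted p = 0.000372). Mymx, myomixer, had 822, 805 and 723 and then 197, 355 and 221 (log2 change -1.65, SE 0.20, adjusted p = 0.000456). The master regulators did not pass. Myod1 read 855, 844 and 888 and then 940, 968 and 906 (log2 change 0.12, adjusted p = 0.292), Myog read 2698, 2577 and 2588 and then 2324, 2364 and 2595 (-0.11, adjusted p = 0.349), and Myf5 had a change of 0.01 (adjusted p = 0.934). With an SE of 0.09 for Myod1 and Myog, changes as large as those of Mymx or Myl4 are far outside the values measured. Of all 19 measured myogenic regulators 3 rose and 2 fell, a share of 26.3% against the background of 54.2%. Without 6 hours replicate 2 it was 6 and 4, against a background of 74.3%. Six4, a homeobox factor that acts on the Myog gene, rose 2.02-fold (192, 170 and 161 to 387, 302 and 369), Eya4 rose 1.93-fold and Snai2 fell 1.76-fold.

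Myl4, Mymx and Myog were above their Day 0 levels on Day 1. Myl4 was at 41.9 ± 20.3 on Day -1, 1308 ± 98.0 on Day 0, 261 ± 7.99 at 6 hours and 2110 ± 319 on Day 1, and Mymx was at 26.5 ± 13.8, 783 ± 53.2, 258 ± 85.0 and 2049 ± 321. Myog was at 2428 ± 146 at 6 hours and 5499 ± 703 on Day 1. The median of the sarcomere list relative to Day 0 was -3.57 on Day -1, -0.60 at 6 hours and 0.81 on Day 1. Smpx and Cox6a2 stayed below Day 0 on Day 1, with means of 301 against 402 and of 63.8 against 151. The E-boxes CAGCTG or CAGGTG, letters bound by MyoD and its relatives, were present in 14 of 22 sarcomere genes with a promoter in the table, in 32.9% of all promoters and in 31.1% of the genes tested.

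**Figure D4:**
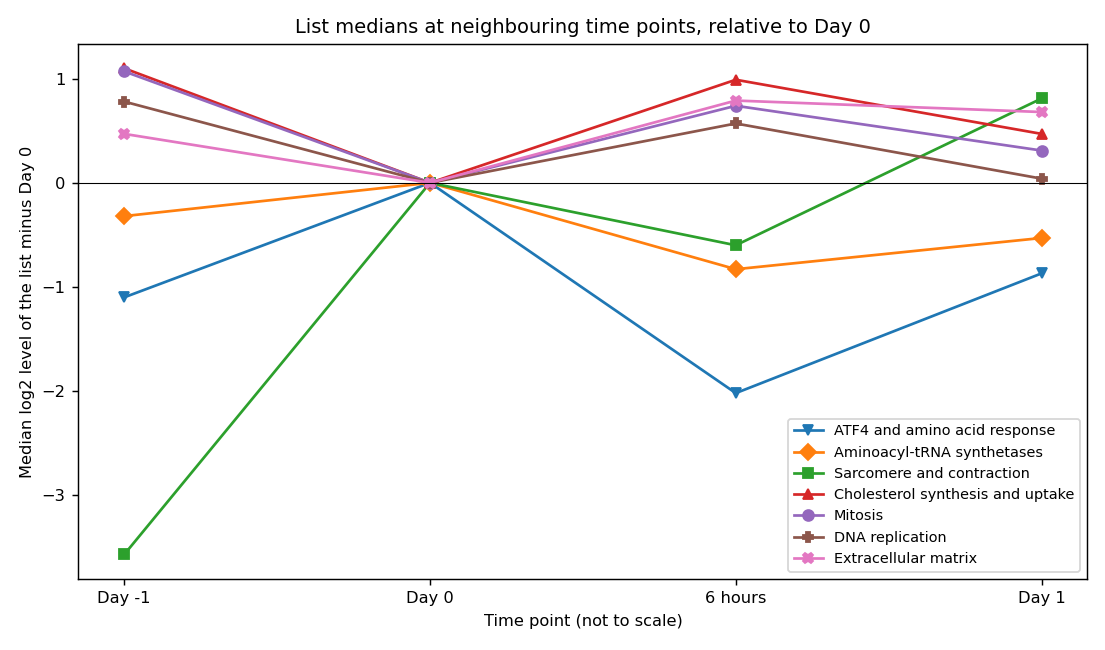
Median log2 level of 7 gene lists at Day -1, Day 0, 6 hours and Day 1, relative to Day 0, with time points evenly spaced. The ATF4 list is lowest at 6 hours, the mitosis, DNA replication and cholesterol lists are highest on Day -1 and dip on Day 0, and the sarcomere list falls by 0.60 to 6 hours before it stands at 0.81 on Day 1.

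Genes of Id proteins, which block MyoD by binding its E-protein partners, rose. Id2 had 202, 178 and 203 on Day 0 and 834, 1048 and 991 at 6 hours (log2 change 2.29, SE 0.12, adjusted p = 7.48e-06). Id3 had 137, 185 and 189 and then 722, 1097 and 715 (log2 change 2.30, SE 0.19, adjusted p = 8.21e-05), and Id1 rose 2.24-fold. All 3 had their highest 6-hour value in replicate 2, and without it the changes of Id1 and Id3 were 0.97 and 2.09. Id2 was at 2.07 without it, but on its other probe set (2.18 with all arrays), so 2.07 cannot be set against 2.29. In the list of TGF-beta, BMP and Id genes 7 of 13 measured genes rose and 1 fell, with a median change of 0.53, and 9 rose and 1 fell without replicate 2. Without a level filter the median was 0.14. The gene that fell was Tgif1, a Smad corepressor, at -0.48, whose call was lost without Day 0 replicate 2 (adjusted p = 0.0545). The receptor gene Notch1 rose as well, from 96.7, 111 and 90.3 to 238, 267 and 266, and Hes6 rose 2.12-fold, while Hes1, a Notch target, did not pass (log2 change 0.33, adjusted p = 0.0595). In the whole Notch list 3 of 9 measured genes rose and 1, Rbpj, fell (log2 change -0.47, adjusted p = 0.0218 in limma). Its median change was 0.02, and 44.4% of the list passed against 54.2% of all genes.

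Matrix and actin cytoskeleton genes were also higher. Of 35 measured genes of the extracellular matrix 25 rose and 2 fell, with a median change of 0.79, and without 6 hours replicate 2 it was 27 and 3. Postn, periostin, had 9.98, 13.9 and 10.5 on Day 0 and 194, 204 and 191 at 6 hours, a 17.3-fold rise (log2 change 4.11, SE 0.14, adjusted p = 8.49e-07). Tnc, tenascin C, rose 5.29-fold from 114 ± 4.33 to 603 ± 57.8, and Col4a1, a chain of basement membrane collagen, rose 3.25-fold. Ltbp2, which sits on matrix microfibrils, was among the 12 largest rises (57.5, 52.7 and 42.0 to 266, 224 and 355). The genes that fell were small leucine-rich proteoglycans. Dcn, decorin, went from 473, 521 and 501 to 58.8, 58.0 and 51.8 (log2 change -3.15, SE 0.10, adjusted p = 6.35e-07), and Ogn fell by 0.54. Among the targets of SRF, MRTF and YAP 12 of 27 rose and 2 fell, and without 6 hours replicate 2 it was 13 and 5. The median change of this list was 0.21, and 51.9% of it passed against 54.2% of all genes. Tagln, the actin-binding protein transgelin, had 33.6, 46.4 and 30.0 and then 319, 557 and 434 (log2 change 3.56, SE 0.22, adjusted p = 2.11e-05). Ccn2, a matricellular target of both TGF-beta and YAP, rose 4.61-fold and Myl9 3.61-fold. Fhl2 and Ccn1 were the members that fell, at -0.54 and -0.33, and Srf itself did not pass (log2 change -0.27, adjusted p = 0.182 in limma). Postn was at 57.4 ± 5.78 on Day -1 and 120 ± 9.80 on Day 1, and Tagln at 59.4 ± 16.9 and 125 ± 18.7, so both were highest at 6 hours among these time points.

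Genes that answer fresh serum within the hour were lower at 6 hours more often than higher. Of 23 measured immediate early and AP-1 genes 11 fell and 2 rose, with a median change of -0.31, and without 6 hours replicate 2 it was 13 and 5. Myc had 654, 686 and 670 on Day 0 and 265, 333 and 305 at 6 hours (log2 change -1.16, SE 0.11, adjusted p = 0.000138). Egr1 went from 1438, 1557 and 1677 to 646, 911 and 769, a 2.02-fold fall, while Egr3, of the same family, rose from 45.0, 33.0 and 26.2 to 122, 127 and 183 (log2 change 2.07, SE 0.22, adjusted p = 0.000231). Jun did not pass (log2 change 0.21, adjusted p = 0.102), and Fos was below the level filter in both groups, at 20.1 to 49.0. Other factors of growth signalling moved apart. Etv5 fell by 1.37 and Etv4 rose by 0.70, both of them ETS factors downstream of FGF and ERK, and Dusp6, the ERK phosphatase, rose by 0.45. In the insulin-like growth factor system 4 of 8 measured genes fell and 1 rose. The latter was Irs1, an adaptor of the insulin and IGF receptors (log2 change 0.65, adjusted p = 0.00723, and 0.0591 without a level filter), while Igfbp5 fell 2.00-fold and Igfbp4 8.22-fold, the latter from 122, 107 and 91.1 to 23.9, 9.41 and 9.48. On the brighter probe set of Igfbp5 (group means 6615 to 4870) the fall was smaller (log2 change -0.44).

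Chaperone genes rose more often than they fell, while genes of other stress responses moved in both directions. Of 23 measured chaperones and factors of the endoplasmic reticulum 14 rose and 6 fell, with a median change of 0.43. Sdf2l1, a partner of the chaperone BiP, had 40.5, 36.3 and 38.6 on Day 0 and 127, 159 and 121 at 6 hours (log2 change 1.81, SE 0.12, adjusted p = 3.70e-05), and Hspa5, which encodes BiP, rose on all 3 of its probe sets. Its log2 change was 0.76 on the dim probe set used here (75.2 ± 9.62 to 126 ± 8.06) and 0.42 and 0.60 on the bright ones (group means 6654 to 8954 and 3324 to 5099). Herpud1, of the degradation pathway and also an ATF4 target, went the other way, from 1152, 1192 and 1211 to 412, 445 and 465. The sensor Atf6 fell by 1.09. Of 14 cytosolic heat shock genes 7 rose and 1 fell (9 and 3 without 6 hours replicate 2), and Hspa1b, an inducible Hsp70, rose 2.89-fold. Of 21 genes of the NRF2 defence 9 rose and 5 fell (median change 0.15, and -0.09 without 6 hours replicate 2). Nfe2l2, NRF2 itself, fell by 0.90 and the glutathione transferase Gsta2 by 2.34, from 1713, 1360 and 1458 to 323, 327 and 248. Of 27 lysosome and autophagy genes 14 fell and 1 rose (median change -0.44), among them Map1lc3b, which marks autophagosomes (-0.78). Gadd45a, a growth arrest gene that p53 also raises, changed by -1.96, and Ndrg1, a hypoxia and stress gene, by -1.88 with all 5 of its probe sets lower.

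Adhesion and protease genes at the cell surface passed about as often as genes in general, with 56.2% of 16 fusion and adhesion genes and 50% of 8 matrix protease genes (2 higher, 2 lower) against 54.2% of all genes. Cdh2, N-cadherin, had 164, 157 and 128 on Day 0 and 420, 395 and 489 at 6 hours (log2 change 1.54, SE 0.13, adjusted p = 8.21e-05), and the junction protein Jam2 rose on all 4 of its probe sets, by 0.31 to 0.90 on the log2 scale. Cdh15, M-cadherin, did not pass (2529, 2928 and 2813, then 2423, 2271 and 2662, adjusted p = 0.218). Adamts4, a protease that cleaves proteoglycans, had 122, 114 and 110 and then 493, 461 and 624 (log2 change 2.18, SE 0.13, adjusted p = 1.60e-05). Mmp14, a membrane-bound collagenase, rose 2.88-fold, while Has1, which makes hyaluronan, fell 1.94-fold. Of the myoblast markers 1 rose and 1 fell. These were Met, the receptor of hepatocyte growth factor, which rose 1.86-fold, and Cd34, a marker of quiescent satellite cells, which fell from 555, 578 and 586 to 189, 224 and 241.

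Genes tied to oxygen, growth and inflammation gave mixed counts. Of 14 hypoxia-inducible genes 6 fell and 3 rose. Ero1a, the oxidase that forms disulfide bonds in the endoplasmic reticulum, had 789, 760 and 730 on Day 0 and 231, 193 and 216 at 6 hours (log2 change -1.84, SE 0.10, adjusted p = 1.19e-05). Vegfa, an angiogenic growth factor, had 388, 413 and 464 and then 210, 196 and 201, while Egln3, a prolyl hydroxylase that marks HIF for destruction, rose by 0.71 and Plod2, a collagen lysyl hydroxylase, by 0.74. In the Myc and Mxd network 5 of 14 genes rose and 1, Myc, fell. Mxd3, a Myc antagonist, rose 2.81-fold (35.8, 36.3 and 38.5 to 139, 110 and 73.0), and Odc1, the rate-limiting enzyme of polyamine synthesis, rose 1.59-fold. Transketolase (Tkt) and Pgd, enzymes of the pentose phosphate pathway, rose 1.65-fold and 1.68-fold. Of 12 chemokine, cytokine and NF-kB genes 4 fell and 1 rose. The latter was Cx3cl1, a membrane-bound chemokine, at 33.1, 33.2 and 43.3 and then 98.6, 130 and 141 (log2 change 1.75, SE 0.16, adjusted p = 0.000136), and Tnfaip2, a TNF-induced gene, fell 2.83-fold. On the brighter probe set of Tnfaip2 (group means 2538 to 1494) the fall was smaller (log2 change -0.78). Ccl2 stayed below the level filter, at 83.7, 106 and 102 and then 53.8, 103 and 64.6, and Il6 read at most 1.96 on these arrays. Among interferon response genes 3 of the 5 measured fell, namely Ifi27, Ifi35 and B2m, by 0.92, 0.87 and 0.50. Without 6 hours replicate 2 the number that rose was 5 for the hypoxia list, 2 for the chemokine list, 1 for the interferon list and 3 for the myoblast markers.

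In housekeeping lists the count depended on 6 hours replicate 2, as it did over all genes. Of all genes 54.2% passed with that array and 74.3% without it. With all arrays 12.9% of proteasome, 18.5% of ribosomal protein and 38.2% of oxidative phosphorylation genes passed. Of 31 proteasome subunits 3 rose and 1 fell with all arrays, and 8 rose and 13 fell without that array. Of 27 cytosolic ribosomal proteins 1 rose and 4 fell, and without it 1 rose and 15 fell. Of 34 genes of oxidative phosphorylation 1 rose and 12 fell, and without it 1 rose and 24 fell. Medians of these lists on replicates 1, 2 and 3 were -0.10, 0.05 and -0.18 for the proteasome, -0.18, -0.02 and -0.25 for ribosomal proteins, and -0.35, -0.07 and -0.43 for oxidative phosphorylation, so replicate 2 lay nearest to Day 0 in each. This was not particular to housekeeping lists. Replicate 2 was also nearest for fatty acid synthesis (0.81, 0.46 and 1.01) and the matrix (0.75, 0.65 and 1.00), but not for the synthetases (-0.79, -0.95 and -0.78). In the genes of splicing 19 of 38 rose and none fell, and without it 22 rose and 5 fell. Srsf6, a splicing factor of the SR family, rose on all 4 of its probe sets, by 0.52 to 1.14 on the log2 scale (204, 204 and 193 to 447, 419 and 464 on the one used here). Ribosome biogenesis was mixed, with 11 of 49 higher and 8 lower, and 16 and 15 without that array.

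**Figure D5:**
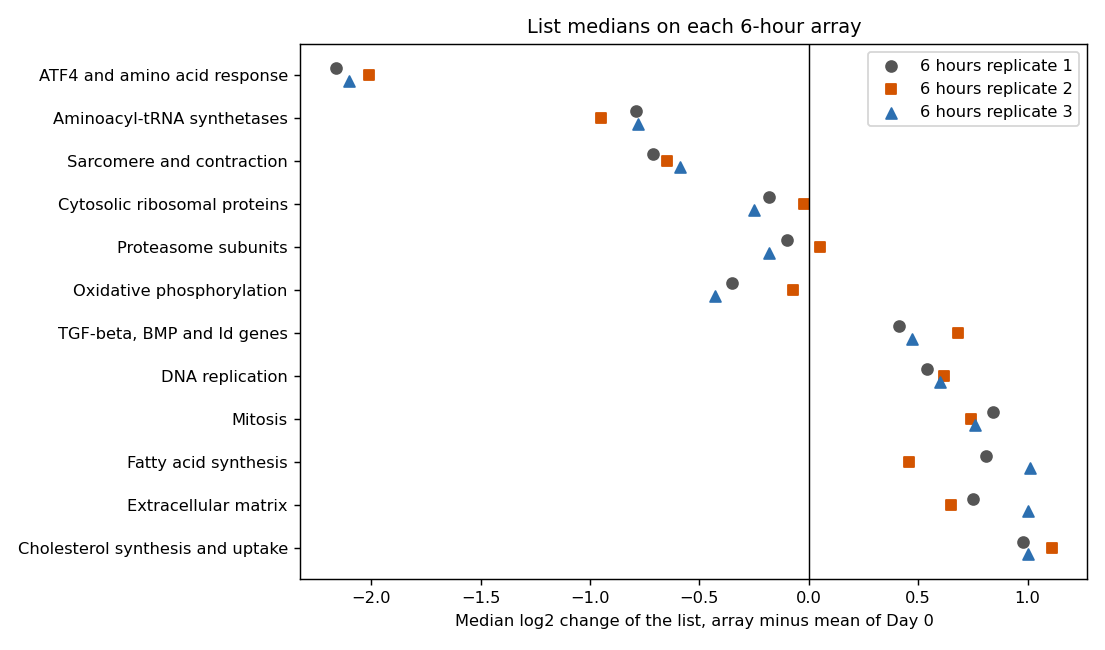
Median log2 change of 12 gene lists on each 6-hour array relative to the mean of Day 0. The 3 arrays lie close together for the ATF4, synthetase, sarcomere, mitosis, DNA replication and cholesterol lists. Replicate 2 lies nearest to 0 for proteasome, ribosomal protein and oxidative phosphorylation genes, and also for the fatty acid and matrix lists.

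The single largest changes included genes of no list. Car6, a secreted carbonic anhydrase, had 525, 551 and 409 on Day 0 and 3.18, 1.95 and 1.91 at 6 hours, the largest fall of all genes that passed (log2 change -7.75, SE 0.21, adjusted p = 2.57e-07). It read 2.28 ± 0.595 on Day -1 and 13.7 ± 7.55 on Day 1, so that among these time points it was high on Day 0 alone. Avil, an actin-severing protein, was similar, at 19.3 ± 1.58 on Day -1, 341 ± 25.7 on Day 0, 9.97 ± 1.92 at 6 hours and 19.9 ± 2.09 on Day 1. Csn3, which encodes kappa-casein, fell 27.0-fold, Glrp1 38.9-fold, AA467197 30.8-fold and Cdsn, corneodesmosin, 13.0-fold. On the side of the rises Mest, an imprinted gene of mesoderm, had 5.92, 5.79 and 7.05 and then 173, 151 and 201 (log2 change 4.80, SE 0.13, adjusted p = 2.70e-07). Glipr1 rose 15.5-fold, Fhod3, a formin that assembles actin in muscle, rose 6.36-fold, and Pxylp1, a phosphatase of proteoglycan synthesis, rose 6.02-fold. Tubb3, a tubulin used as a marker of neurons, rose from 151, 210 and 221 to 1063, 1207 and 905 and had been at 879 ± 39.1 on Day -1. It was the sole marker of endothelium, nerve and epithelium to reach the level filter. Several of these genes lay near the lower end of the scale in the lower group. With values below 50 raised to 50 the log2 changes of Car6, Cox6a2, Mest and Postn were -3.30, -1.58, 1.80 and 1.97, and all still passed.

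Genes of circadian, hormone and nutrient signals moved in both directions. Dbp, an output gene of the clock, fell from 132, 145 and 105 to 22.3, 26.3 and 19.8 (log2 change -2.48, SE 0.15, adjusted p = 1.80e-05), while Arntl and Cry1, of opposite arms of the clock, rose 1.83-fold and 2.12-fold. Per1 and Per2 were below the level filter, at no more than 4.29. Of 12 genes induced by glucocorticoids 2 rose and 4 fell (3 and 7 without 6 hours replicate 2), with Tsc22d3 at -1.21, Klf9 at -1.26 and Fkbp5 at 1.28. Of 24 FOXO targets and atrogenes 8 rose and 11 fell (median change -0.07, and 0.07 without 6 hours replicate 2). Pdk4, which shuts down pyruvate oxidation, rose 3.72-fold from 31.2, 31.9 and 27.7 to 104, 116 and 118, and Txnip, an arrestin that limits glucose uptake, fell 2.14-fold. The ubiquitin ligase Fbxo32 did not pass (log2 change 0.17, adjusted p = 0.214). Of 8 adipocyte markers on the array 2 were measured, Pparg and Lpl, and both fell, by 1.59 and 1.19.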

How the data were processed

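RNA of C2C12 cells was measured by the authors on Affymetrix mouse arrays, and 6 of the 24 arrays (Day 0 and 6 hours, 3 each, grouped by their labels) were compared. The deposited table holds 1 intensity per probe set and array, on a linear scale. It was made by the authors with GC-RMA, taken back from log2 to linear values and scaled per array to a trimmed mean, as the study's methods say. The submitters' processing notes name GCRMA and MAS5, with no version and no role for the latter. The trimmed means of the 6 arrays were 149.7 to 155.0 (2% taken from either end), and an intensity of 100 was reached by 26.0% to 26.9% of probe sets. No depth applies to arrays, and the number of arrays limits the precision.

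Of 45037 probe sets (64 controls left out), the 12565 with a mean of at least 100 in either group were fitted on log2 intensities with limma 3.58.1 in R 4.3.3, and p-values were adjusted over all of them by the method of Benjamini and Hochberg. The filter keeps a gene that is low in 1 group where the other is high. For each gene the probe set whose absolute moderated t was highest in a fit was kept, following the study's methods, so it could differ between fits. This favours the probe set that changed most, and 19 genes had probe sets called in both directions. Of 34945 probe sets with 1 gene in the array annotation 34741 had an identifier in the RefSeq table, and 910 probe sets tested had several genes or none and were left out of gene counts. Single genes rest on limma, because an exact permutation test with 3 arrays a side has 0.1 as its smallest p. The fit was tested on simulated data over 12565 probe sets, where it found 16 of 67 log2 changes of 0.5, 60 of 67 changes of 1 and 64 of 66 changes of 2. It also called 3 of the 12365 probe sets simulated without a change. Far more probe sets changed in the real arrays, so these shares do not carry over.

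The comparison, the 46 gene lists and the genes to be named were chosen with earlier results of these data known, so lists are described by counts and medians beside all genes and were not tested as sets. Named are the 12 largest rises and falls with arrays that do not overlap, up to 3 genes per list and direction with the lowest adjusted p, and a fixed list of regulators. Pmvk, Ebp, Ddit4, Farsb, Mcm6 and the genes shown only for a promoter match were named after their values were seen. Promoters of RefSeq (GRCm38.p6) were searched for fixed letters on both strands. Alternatives were leaving out each array in turn, a replicate block, 1 fit for all 24 arrays, a minimum level of 200 or none, quantile or median scaling, a floor of 50, choosing probe sets by mean level, an intensity trend, linear intensities and a 2-fold threshold. Some genes of the lists and of the fixed list were not analysed here, and not every promoter match is reported here.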

Additional observations from a re-analysis of the deposited data

How the results depend on the processing

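The counts of genes moved by over 1.5 times under few settings. With a 2-fold threshold 274 genes were higher and 362 lower, and 415 and 496 probe sets (3100 and 2693 without it). Leaving out 1 array gave 1323 to 2741 genes higher and 1225 to 2740 lower, and 1957 to 4573 and 1667 to 3868 probe sets, with the highest counts without 6 hours replicate 2. Of 162 named genes tested, 143 kept direction and call under every setting in which they were tested, the 2-fold threshold aside. Both genes that changed sign, Myf5 and Fbxo32, had not passed. Myf5 was at -0.00 with arrays centred on the median, -0.06 without Day 0 replicate 1 or 6 hours replicate 2 and -0.03 without Day 0 replicate 2 (-0.06 to 0.13 over all arrays left out). Fbxo32 was at -0.14 without Day 0 replicate 3 (-0.14 to 0.24), where the probe set kept was its other one (-0.05 with all arrays). For Myf5 the cause was not tested.

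No median of the 9 lists described at length changed sign. Medians that moved by more than the SD between the 6-hour arrays were, without a level filter, 0.14 for TGF-beta, BMP and Id genes, -0.74 for the sarcomere, -0.71 for the synthetases, -1.95 for the ATF4 list and 0.38 for fatty acid synthesis. With a level of at least 200 mitosis had 0.80 and the ATF4 list -1.89. The ATF4 list had -1.91 with values raised to 50 or an intensity trend and -1.83 with the probe set of the highest mean, where DNA replication had 0.52, and the fit to all 24 arrays gave DNA replication 0.62. Leaving out 1 array gave -2.13 to -1.95 for the ATF4 list, -0.88 to -0.77 for the synthetases, 0.93 to 1.04 for cholesterol, 0.60 to 0.91 for fatty acids, 0.73 to 0.82 for mitosis, 0.57 to 0.60 for DNA replication, 0.71 to 0.93 for the matrix, 0.46 to 0.57 for TGF-beta, BMP and Id genes and -0.77 to -0.54 for the sarcomere. Of 40 lists with at least 5 measured genes the median of 13 changed sign under some setting.

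Replicate numbers are shared by both groups, and the labels do not say whether they pair the arrays. For the numbers 1, 2 and 3 the deviations from the group means correlated with r = 0.299, 0.132 and -0.333, and not every array was closest to its own number. Deviations from a mean of 3 arrays are tied to each other, so these values do not settle it. With the number as a replicate block 2987 probe sets were higher and 2712 lower, and the median of DNA replication was 0.62. For genes near the lower end of the scale the floor of 50 shrank the change, as for Car6 from -7.75 to -3.30, and all 162 genes kept their call under it.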
